A study of Mus musculus with 6 samples.

Results

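Otx2, Pou3f1, Fgf5, Fgf15, Foxd3, Zic2 and Sox3 are genes of the formative and primed epiblast, the stages that follow naive pluripotency. They were read from a table of 27179 Entrez Gene identifiers in mouse embryonic stem cells, and all 7 were matched by symbol. The cells came from the E14TG2a background and carried FLAG-tagged Trim71, either unchanged (labelled WT, 3 libraries) or with the R783H amino-acid change linked to hydrocephalus (3 libraries). Trim71 is an RNA-binding protein of stem cells, and all 6 cultures were grown in 2i with LIF, in which PD0325901 blocks MEK, CHIR99021 blocks GSK3 and leukemia inhibitory factor supports self-renewal. The comparison asked which of these mRNAs differed when Trim71 carried R783H. The labels do not state whether each genotype was 1 clone, or what distinguishes libraries A, B and C of a genotype, so the p-values measure the spread between these libraries only.

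Naive embryonic stem cells resemble the epiblast before implantation. On leaving that state they pass through a formative phase, in which OTX2 and OCT6 (the product of Pou3f1) are switched on and bind new enhancers, and then reach a primed phase marked by FGF5. FGF signalling through ERK drives this transition, and the MEK inhibitor of 2i holds it back. FOXD3 is needed to maintain pluripotent cells and to leave the naive state in an ordered way, whereas ZIC2 and SOX3 are present in pluripotent cells and later act in the neural plate.

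The 7 genes differed in direction. Otx2 was about 4 times as high in R783H as in WT, and Zic2 was higher by a smaller amount. Fgf15, Pou3f1, Foxd3 and Sox3 were lower in R783H. Fgf5 was close to the limit of detection in every library and was not tested. Of the 6 members that passed the filter on low counts, 6 were called (adjusted p under 0.05), 2 higher and 4 lower, whereas 64.5% of all 14199 tested genes were called, 33.5% higher and 30.9% lower. Called changes of 2-fold or more made up 3 of the 6 members and 9.08% of all tested genes. The groups did not overlap for any of the 6, and they did not overlap for 68.1% of all tested genes. The median log2 fold change (R783H over WT) was -0.77 over the 6 members and 0.03 over all tested genes; with an offset for transcript length and GC content the members' median was -0.45. Fgf15 passed the filter only through its WT libraries, so its difference is partly built into that count.

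**Figure D1:**
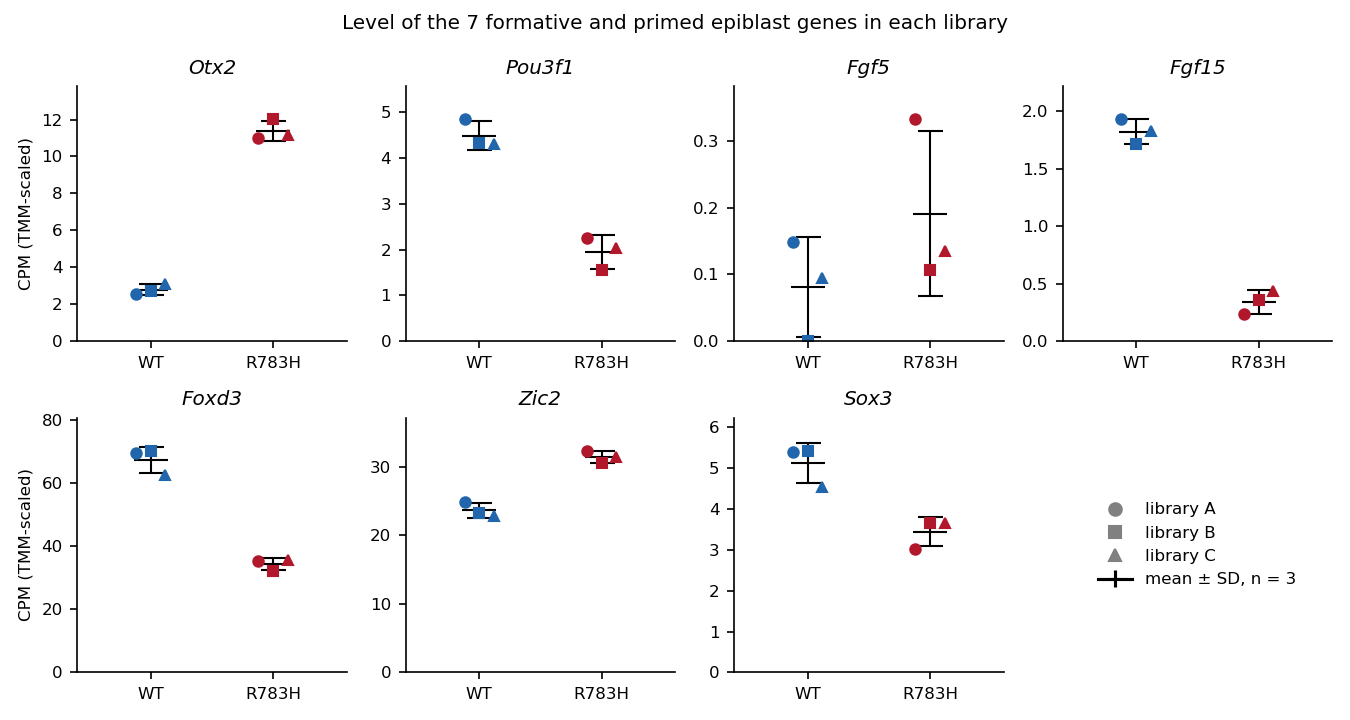
CPM after TMM scaling (vertical axes, each from 0) of the 7 genes in each WT and R783H library; symbols mark libraries A, B and C, and bars the mean ± SD of 3 libraries. The groups are apart in every panel except that of Fgf5, where the values lie between 0 and 0.333 CPM and overlap.

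Sequence upstream of the annotated starts was available for 3 of the 7 members, in RefSeq's promoter windows on GRCm38.p6. The windows are shown because they place Otx2, the member that rose most, beside Foxd3, which fell, and Fgf5, which was barely detected. Otx2 has 4 starts among these windows. Each run below is the 250 bases before a start, read 5′ to 3′ on the gene's strand, with matches to the motifs searched in capitals.
Otx2 start 1, chr14:48667645-48667894, minus strand: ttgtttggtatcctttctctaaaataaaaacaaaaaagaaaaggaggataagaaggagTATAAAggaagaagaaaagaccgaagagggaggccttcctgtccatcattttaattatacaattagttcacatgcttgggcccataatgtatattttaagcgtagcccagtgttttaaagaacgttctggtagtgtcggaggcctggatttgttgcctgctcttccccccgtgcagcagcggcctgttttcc
Otx2 start 3, chr14:48665110-48665359, minus strand: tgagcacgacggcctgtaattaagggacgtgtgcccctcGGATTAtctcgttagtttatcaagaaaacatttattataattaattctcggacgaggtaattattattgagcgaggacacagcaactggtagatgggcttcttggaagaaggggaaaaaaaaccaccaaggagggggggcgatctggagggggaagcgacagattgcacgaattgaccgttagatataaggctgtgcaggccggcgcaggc
Foxd3, chr4:99656049-99656298, plus strand: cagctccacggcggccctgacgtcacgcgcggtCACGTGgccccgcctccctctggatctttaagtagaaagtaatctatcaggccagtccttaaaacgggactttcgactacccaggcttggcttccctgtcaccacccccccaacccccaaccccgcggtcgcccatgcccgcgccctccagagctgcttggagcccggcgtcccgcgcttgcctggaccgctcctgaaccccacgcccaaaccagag
Fgf5, chr5:98253934-98254183, plus strand: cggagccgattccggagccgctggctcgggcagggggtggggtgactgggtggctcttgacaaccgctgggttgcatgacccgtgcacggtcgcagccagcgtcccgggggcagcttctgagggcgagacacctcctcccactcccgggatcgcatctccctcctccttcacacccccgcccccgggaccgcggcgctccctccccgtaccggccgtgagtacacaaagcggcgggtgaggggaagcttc

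The Otx2 windows were poorer in G and C than those of the other 2 genes. Their GC content was 42% and 48.4% at the starts shown and 49.2% and 53.6% at the other 2, against 65.6% upstream of Foxd3 and 70.8% upstream of Fgf5, and the median over 32851 windows was 52.4%. Motifs were searched on both strands: the octamer ATGCAAAT bound by POU factors, the OTX site TAATCC, the TCF and LEF site CTTTGAT, the SOX site AACAATG, the ETS site CCGGAAG, the E-box CACGTG and TATAAA; none of these overlaps another in the runs shown. Otx2 start 1 held TATAAA, which 12.4% of windows of this length held, and start 3 held the OTX site on its opposite strand, held by 6.25%. Otx2 starts 2 and 4, not shown, had no match. Of the 11 GENCODE transcripts of Otx2, 1 began at start 1, 2 at start 2 and 0 at starts 3 and 4. The other transcripts were not matched to any of these starts. The Foxd3 window held the E-box, held by 6.02% of windows, and the Fgf5 window had no match. These matches describe letters only. The counts are per gene, so no level could be assigned to any of the 4 Otx2 starts.

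The libraries were deep and similar. Totals ran from 20894277 to 29079670 counts, with the 3 WT libraries the shallower ones. A count of 3, taken as the floor of detection, corresponded to 0.0998 to 0.149 CPM, which are counts divided by library size after scaling with TMM factors. Trim71 mRNA itself was not called (log2 fold change 0.03, SE 0.08), and counts per gene do not show the R783H change. Pou5f1, a defining marker of pluripotent cells, averaged 882 ± 64.2 CPM in R783H and 1022 ± 31.8 CPM in WT; it was abundant in every library and called lower in R783H (-0.21, SE 0.05). In a bulk sample, fewer cells of a type and less RNA per cell cannot be told apart, and this holds for every difference given here.

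Among the ligands, Fgf15 encodes the mouse counterpart of FGF19, which signals between tissues and is also made in the early embryo. Fgf15 (Entrez 14170, chr7:144896532-144900953, GRCm38) was counted 39, 42 and 39 times in the WT libraries (A, B and C) but 7, 10 and 13 times in the R783H libraries, or 1.93, 1.71 and 1.83 CPM against 0.233, 0.352 and 0.439 CPM. Every R783H library was below every WT library although the R783H libraries were deeper. The log2 fold change was -2.40 (SE 0.25, 95% interval -2.96 to -1.84), and the Benjamini-Hochberg adjusted p from edgeR's quasi-likelihood fit was 9.88e-06. Summed over libraries, 30 counts against 120 gave 0.341 CPM (exact Poisson 95% interval 0.230 to 0.486) in R783H and 1.82 CPM (1.51 to 2.17) in WT; these intervals cover counting error only. Antisense genes, Gm26793 and Gm39119, cover up to 24.9% of its exon bases each, and because the sources used here do not say whether counting used strand, their reads cannot be told apart from those of Fgf15.

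Fgf5 encodes a secreted FGF that is the classical mRNA marker of the primed epiblast. It (Entrez 14176, chr5:98254184-98277033) was counted 10, 3 and 4 times in the R783H libraries (A, B and C) but 3, 0 and 2 times in WT. The groups overlapped, and the R783H sum rested mostly on library A. Summed counts gave 0.193 CPM (exact Poisson 95% interval 0.112 to 0.309) in R783H and 0.0757 CPM (0.0246 to 0.177) in WT. With no filter on low counts, edgeR's quasi-likelihood fit gave an adjusted p of 0.226. A difference in Fgf5 was not detectable at this depth.

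The transcription factors included the largest rise and moderate falls. Otx2 (Entrez 18424, chr14:48656781-48667644) encodes a homeodomain factor of the formative epiblast and, later, of the forebrain. It stood at 11.01, 12.02 and 11.1 CPM in R783H A, B and C and at 2.52, 2.69 and 3.09 CPM in WT. The lowest R783H library was far above the highest WT library. The log2 fold change was 2.04 (SE 0.11, 95% interval 1.80 to 2.28), a 4.10-fold difference, at an adjusted p of 1.16e-07 (edgeR quasi-likelihood). Among all tested genes, ordered by log2 fold change, Otx2 stood at the 99.5th percentile and Fgf15 at the 0.176th. The antisense gene Otx2os1, which shares a small part of its exons, had at most 4 counts in any library. Gm49154, which overlaps Otx2 on the same strand, was not counted, so its reads cannot be told apart from those of Otx2.

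Pou3f1 encodes OCT6, a POU factor that acts with OTX2 at formative enhancers. Pou3f1 (Entrez 18991, chr4:124657646-124660655) stood at 4.85, 4.32 and 4.31 CPM in WT A, B and C and at 2.26, 1.55 and 2.03 CPM in R783H. It was lower in every R783H library, in the opposite direction to Otx2. The log2 fold change was -1.20 (SE 0.16, 95% interval -1.54 to -0.86; adjusted p 4.83e-05 by the same test). The antisense gene Gm2164 shares up to 8.57% of its exon bases.

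Foxd3 encodes a forkhead factor of pluripotent cells and of the neural crest. Foxd3 (Entrez 15221, chr4:99656299-99658671) stood at 69.4, 70.2 and 62.6 CPM in WT and at 35.2, 32.2 and 35.5 CPM in R783H, libraries A, B and C in that order. The R783H values lay close together and well below the WT values. The log2 fold change was -0.97 (SE 0.06, 95% interval -1.11 to -0.84; adjusted p 3.15e-07, edgeR quasi-likelihood), just short of a 2-fold fall. Gm23366, on the same strand, shares up to 3.83% of the Foxd3 exon bases and was not counted.

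Zic2 and Sox3 moved least. Zic2 (Entrez 22772, chr14:122475384-122480328), a zinc-finger factor that binds enhancers in pluripotent cells, stood at 32.3, 30.6 and 31.5 CPM in R783H and at 24.9, 23.2 and 22.8 CPM in WT. The rise was 1.33-fold, with a log2 fold change of 0.41 (SE 0.06, 95% interval 0.28 to 0.55; adjusted p 1.05e-04 by edgeR's quasi-likelihood test). Sox3 (Entrez 20675, chrX:60891366-60893430), an SRY-type factor closely related to SOX2, stood at 5.40, 5.42 and 4.55 CPM in WT and at 3.03, 3.66 and 3.65 CPM in R783H. Its log2 fold change was -0.57 (SE 0.13, 95% interval -0.86 to -0.29; adjusted p 0.00251 by the same test). The Sox3 call depended on how transcript length and base composition were treated, since with an offset for both the value was -0.23 and the adjusted p 0.140 (edgeR quasi-likelihood). Fold changes across the table rose with transcript length, from a median of -0.17 in the shortest 10% of genes to 0.31 in the longest 10%. The longest Sox3 transcript has 2065 nt and 66.4% GC, the highest GC content among the 7 members, and Foxd3 (65.1% GC) moved to -0.68 with the same offset while staying called.

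**Figure D2:**
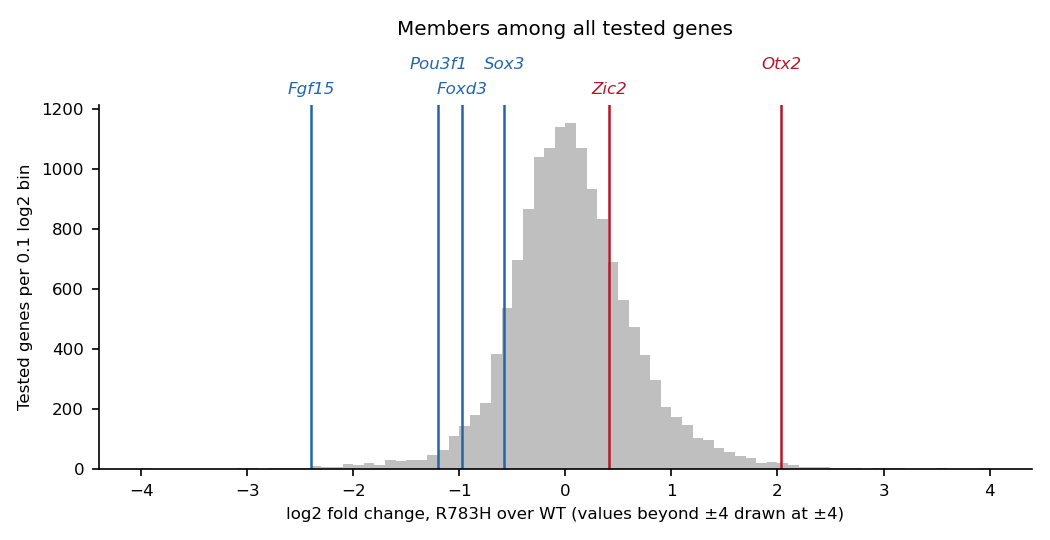
Histogram of the log2 fold change (R783H over WT, horizontal axis) of the 14199 tested genes in bins of 0.1, with vertical lines at the 6 tested members, red where higher and blue where lower. Otx2 (2.04) and Fgf15 (-2.40) lie in opposite tails, while Zic2 (0.41) and Sox3 (-0.57) lie within the bulk of the genes.

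Ratios between members within a library do not depend on how libraries are scaled. Otx2 had 4.87, 7.75 and 5.50 counts for each Pou3f1 count in R783H A, B and C, and 0.520, 0.623 and 0.717 in WT. As raw counts, which are not corrected for the longer Pou3f1 transcript, Pou3f1 thus had more than Otx2 in every WT library and fewer in every R783H library. Foxd3 had 2.79, 3.03 and 2.74 counts for each Zic2 count in WT, and 1.09, 1.05 and 1.13 in R783H. The 2 genes therefore had nearly equal counts in R783H. With 3 libraries against 3, an exact permutation test of such a ratio could not give a p below 0.1, so the ratios are given without a test.

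Levels of different genes were compared per length, as CPM per kb of the longest annotated transcript. In WT the order was Foxd3 (29.0 ± 1.79 CPM per kb), Zic2 (9.68 ± 0.442), Sox3 (2.48 ± 0.241), Pou3f1 (1.17 ± 0.0802), Otx2 (1.07 ± 0.113), Fgf15 (1.01 ± 0.0603) and Fgf5 (0.0323 ± 0.0300; SD, n = 3). The values of Otx2 overlapped those of Pou3f1 and those of Fgf15 there, while Pou3f1 and Fgf15 did not overlap each other. In R783H the order was Foxd3 (14.8 ± 0.796), Zic2 (12.9 ± 0.352), Otx2 (4.39 ± 0.211), Sox3 (1.67 ± 0.176), Pou3f1 (0.506 ± 0.0942), Fgf15 (0.189 ± 0.0571) and Fgf5 (0.0764 ± 0.0494). Neighbours in that order did not overlap, apart from Fgf15 and Fgf5. Otx2 moved from the fifth place to the third. Foxd3 and Zic2 together supplied 86.5% of the members' counts in WT and 79.2% in R783H, so a summed level mostly reflects these 2 genes.

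Relatives of the members in their gene families were mixed. Of 20 relatives, 13 were tested, of which 3 were called higher, 5 lower and 5 were not called, close to the 64.5% called among all tested genes, and the median log2 fold change was 0.10. That median was -0.07 without R783H C, -0.10 without WT B and -0.02 with the length and GC offset. Foxd1, a forkhead relative of Foxd3 known from the kidney stroma and the retina, stood at 36.2 ± 4.07 CPM in R783H against 6.53 ± 0.587 in WT (SD, n = 3 each; log2 2.47, SE 0.10), whereas Foxd3 itself fell. Otx1 (0.73, SE 0.39) and the Pou3f1 relatives Pou3f2 (0.10, SE 0.37) and Pou3f3 (0.18, SE 0.39) were not called, at group means of 1.26 CPM or less. The signs of Pou3f2 and Pou3f3 turned without R783H C (-0.19 and -0.07), and also without WT B for Pou3f2 (-0.21) and without WT C for Pou3f3 (-0.15). Otx1 was called in 1 of the 6 fits that left out a library, that without R783H A (0.96, adjusted p 0.0439 by edgeR's quasi-likelihood test).

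Zic and Sox relatives also split. Zic5, which neighbours Zic2, was not called (log2 fold change 0.17, SE 0.11), although it was without R783H B (0.24, adjusted p 0.0390 by edgeR's quasi-likelihood test). Sox1, a neural plate relative of Sox3, rose by 0.66 (SE 0.09), in the opposite direction to Sox3. Sox2, the core pluripotency factor, averaged 543 ± 41.1 CPM in R783H against 537 ± 2.04 in WT and was not called (0.02, SE 0.05, 95% interval -0.10 to 0.13); its sign turned with RLE scaling and without R783H A or C (-0.039 and -0.017).

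Of the FGF ligands listed as relatives, 4 of the 5 tested were called lower and Fgf4 higher. Over all tested genes, 30.9% were called lower and 33.5% higher. The list does not hold every FGF gene. Fgf18 and Fgf8, like Fgf15, passed the filter on low counts only through WT, so their direction is partly built in. Fgf17 dropped to 1.30 ± 0.361 CPM from 6.70 ± 0.500 in WT (SD, n = 3 each; log2 -2.37, SE 0.17), and Fgf18 from 1.13 ± 0.163 to 0.376 ± 0.112 CPM (-1.58, SE 0.28). Fgf8, of the same subfamily, was called at -1.08 (SE 0.34), with at most 16 counts in any library. Fgf3 was called at -0.47 (SE 0.17). The calls of Fgf3 and Fgf8 did not hold under several settings: each was lost with the length and GC offset and without R783H A, R783H C or WT B, that of Fgf8 also without WT C and with DESeq2, and that of Fgf3 with scaling by library size alone. Without R783H A, without R783H C or without WT B, 3 relatives were called lower in place of 5. Fgf4, the main FGF made by naive embryonic stem cells, rose from 271 ± 2.10 to 335 ± 8.08 CPM (0.31, SE 0.04). Fgf15 and Fgf4 lie 31.3 kb apart on chromosome 7 and changed in opposite directions.

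Of 11 receptors and co-receptors for these ligands, 8 were tested, of which 4 rose and 2 fell (median 0.16), against 33.5% higher and 30.9% lower over all tested genes. Fgfr1, the most abundant FGF receptor here, averaged 187 ± 3.48 CPM in R783H against 178 ± 1.55 in WT and was not called (0.07, SE 0.04). Fgfr4 (0.04, SE 0.24), which with the co-receptor beta-Klotho binds FGF15, averaged 1.04 and 1.017 CPM, and Klb, which encodes beta-Klotho, had at most 11 counts in any library and was not tested. Sdc1, a heparan sulfate proteoglycan, dropped to 14.2 ± 1.92 CPM from 31.7 ± 0.777 in WT (SD, n = 3 each; -1.16, SE 0.09). Fgfrl1, an FGF-binding receptor without a kinase domain, rose by 0.74 (SE 0.11), and the glypicans Gpc3 and Gpc4 rose by 0.35 (SE 0.09) and 0.32 (SE 0.05). The other lower call was Fgfr2 (-0.69, SE 0.27), at about 1 CPM or less, and a single receptor gene was called lower without R783H A or B and without WT A, B or C.

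A wider list of 22 genes used as formative or primed markers was tested in full. Of these, 4 rose, 11 fell and 7 did not pass the test (median -0.17), against 64.5% called among all tested genes. The largest changes were falls: Sfrp2, a secreted Wnt antagonist, from 5.54 ± 0.252 to 1.61 ± 0.211 CPM (-1.78, SE 0.14), Tcf15, a bHLH factor of cells primed to leave the naive state, from 24.9 ± 1.36 to 8.81 ± 0.517 CPM (-1.50, SE 0.08), and Etv4, an ETS factor induced by ERK, from 207 ± 7.52 to 89.7 ± 4.996 CPM (-1.21, SE 0.05; SD, n = 3 each). Sox11 changed by -0.70 (SE 0.10). The 4 genes that rose, like Otx2, were Cldn6 (0.70, SE 0.10), Lef1 (0.54, SE 0.13), Sall2 (0.51, SE 0.07) and Nodal (0.33, SE 0.06).

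**Figure D3:**
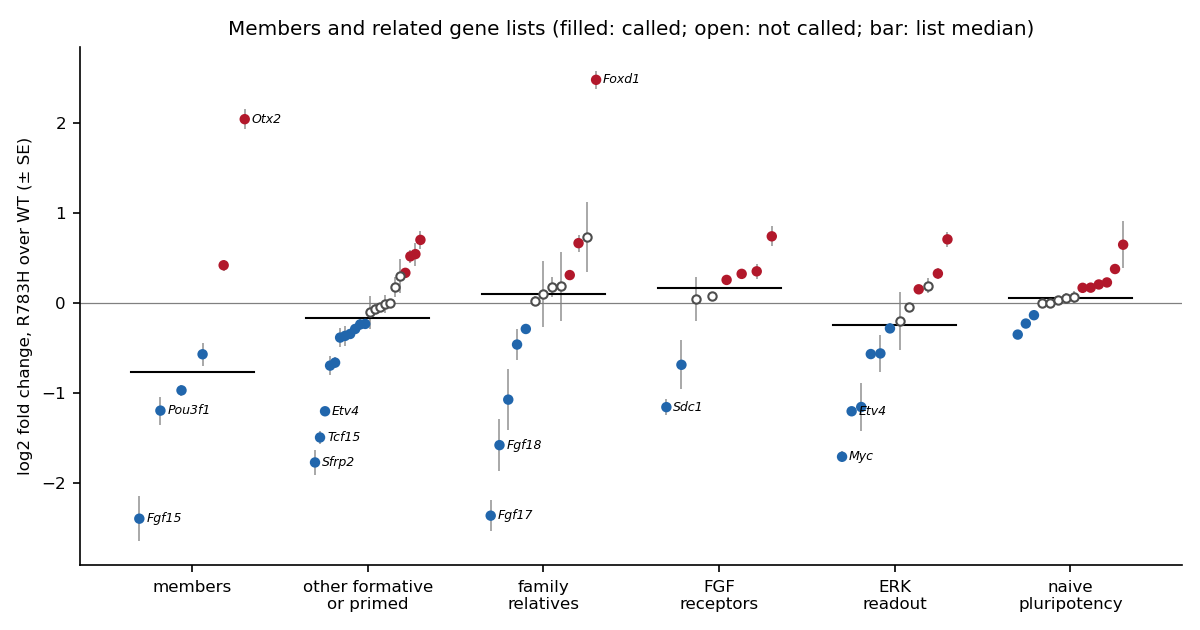
Log2 fold change (R783H over WT, vertical axis) of each tested gene in the members and 5 related lists, ordered by value within a list; bars through points show the SE, horizontal bars the list median, filled points the called genes and open points those not called. The members span the range from Fgf15 (-2.40) to Otx2 (2.04), and the naive genes lie closest to 0 (median 0.06).

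Genes that report on FGF and ERK signalling were mixed: of 12 tested, 3 rose and 6 fell, so that 9 were called against 64.5% of all tested genes. Their median was -0.25, and with 1 library left out it ran from -0.36 (without R783H B or without WT B) to -0.16 (without WT C). Myc dropped by 1.71 on the log2 scale (SE 0.06), to 19.96 ± 1.11 CPM, and Egr1, an immediate early gene, changed by -1.16 (SE 0.27) at group means of 1.205 CPM or less. Spry1, a feedback inhibitor of the pathway, rose by 0.70 (SE 0.09). Of 14 tested naive pluripotency genes, 6 rose and 3 fell, a share of calls close to the 64.5% of all tested genes. Their median was 0.06, and 0.03 without R783H B or without WT B. Tcl1 rose by 0.37 (SE 0.04), while Zfp42 (-0.36, SE 0.04) and Nanog (-0.23, SE 0.04) fell. Dppa3 was called at 0.64 (SE 0.26, adjusted p 0.0497, edgeR quasi-likelihood), but it was 0.32 and not called without WT A, whose 28 counts stood well below those of WT B and C. Dppa3 further failed the threshold with DESeq2, RLE factors or a minimum of 10 counts per library, and when WT B or either of R783H A and R783H B was left out. Without R783H A, without WT A or without WT B, 3 naive genes were called higher.

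Markers of other lineages, which could be present if some cells had left pluripotency, also differed between the groups. The calls below stand beside 64.5% of all tested genes called, 33.5% higher and 30.9% lower. Summed over 9 mesoderm genes the level was 39.4 to 44.4 CPM in R783H and 66.7 to 70.4 CPM in WT, with 5 of 7 tested genes lower, T (-1.89, SE 0.10), Evx1 (-1.74, SE 0.24), Mixl1 (-1.06, SE 0.24) and Eomes (-0.49, SE 0.07) among them. Summed over 8 neural crest genes it was 60.1 to 61.6 CPM in R783H and 30.8 to 35.6 CPM in WT, mostly from Tfap2a (0.91, SE 0.06) and Twist1 (1.02, SE 0.18), with 2 of 3 tested genes higher, while the defining genes Sox10, Tfap2b and Pax7 had at most 6 counts in any library. Snai2, the other tested gene, was not called (0.22, SE 0.45). Pax3, not tested, had 4 to 13 counts per R783H library and 2 to 3 per WT library. Sox10 and Ets1, also not tested, went the other way. Sox10 stood at 0.141 to 0.169 CPM in R783H and 0.204 to 0.297 in WT. Ets1 stood at 0.135 to 0.266 CPM in R783H and 0.285 to 0.693 in WT. Summed levels of 9 neural genes were 84.0 to 91.4 against 117 to 122 CPM, with 2 higher and 2 lower of 5 tested. Among them Map2 stood at 0.96 (SE 0.21) and Tubb3 at -0.80 (SE 0.07), while Neurog2 had at most 3 counts in any library. Neurod1, the other neural gene called lower (-1.01, SE 0.38), passed the filter on low counts only through WT, so its direction is partly built in. The 8 endoderm genes summed to 10.5 to 11.3 against 5.46 to 7.67 CPM, with 2 of 5 tested genes higher, Gata4 (1.08, SE 0.15) and Sox17 (1.29, SE 0.29). Sox17 passed the filter on low counts only through R783H, so its direction is partly built in. Sox7, not tested, went the other way, with 2 to 4 counts per R783H library and 9 to 19 per WT library. Foxa2 had at most 4 counts.

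The 6 trophoblast genes summed to 14.04 to 14.98 against 30.6 to 33.0 CPM, with Gata3 higher (0.73, SE 0.18), Cdx2 (-1.70, SE 0.17) and Tfap2c (-1.24, SE 0.07) lower and Elf5 at no more than 2 counts. The 7 fibroblast genes summed to about 11.8 CPM in each R783H library against 10.7 to 11.7 in WT. Of 4 tested, Thy1 was called lower, with 2 to 8 counts per R783H library and 25 to 34 per WT library, and passed the filter only through WT. Pdgfrb was called higher (0.30, SE 0.10), but not with DESeq2, with the length and GC offset, or without R783H C or WT A, and Postn had at most 1 count. Among 8 markers of pluripotent stem cells, 1 was called higher and 5 lower, with Lin28a (-1.11, SE 0.04), Sall4 (-0.36, SE 0.05) and Dppa5a (0.30, SE 0.05) among them. Zfp42, counted above as a naive gene, is also 1 of the 5 lower. Over all tested genes, 64.5% were called, 33.5% higher and 30.9% lower. The part of any of these cell types in the members' differences was not tested.

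The nearest tested genes on either side of a member were also looked up. Of 12 such neighbours of the 6 tested members, 9 were called, 3 in the direction of the member and 6 against it, where 64.5% of all tested genes were called, 33.5% higher and 30.9% lower. Otx2 lay between Tmem260 (0.81, SE 0.18), 96.6 kb away, and Exoc5 (-0.34, SE 0.08), 344 kb away. Tmem260 rose less than Otx2, and Exoc5 fell. Both genes beside Foxd3, Atg4c (0.34, SE 0.09) and Alg6 (0.29, SE 0.06), were higher while Foxd3 was lower. Fgf15 lay between Fgf4 and the non-coding RNA gene Bc1 (-1.77, SE 0.14), 13.5 kb away, which fell too. Pcca, 4.04 kb from Zic2, rose by 0.98 (SE 0.06), more than Zic2.

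Genes with the most similar profile were sought among those averaging at least 100 counts, as the smallest root mean square distance of log2 CPM over the 6 libraries after centring each gene. Nearest to Otx2 were Trpm1 (distance 0.08, log2 fold change 1.99) and Dsp (0.12, 1.90), and nearest to Pou3f1 were Ddx4 (0.10, -1.36) and Tasor2 (0.11, -1.27). Foxd3 lay closest to Notch4 (0.04, -0.96) and Enoph1 (0.06, -0.94). Zic2 lay closest to Atp6v1h (0.02, 0.39) and Asb8 (0.02, 0.43), and Sox3 to Slc16a13 (0.04, -0.59) and Cdkn2d (0.05, -0.56). With about 10725 candidates and 6 libraries in 2 groups, such distances mostly reflect a similar fold change.

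**Figure D4:**
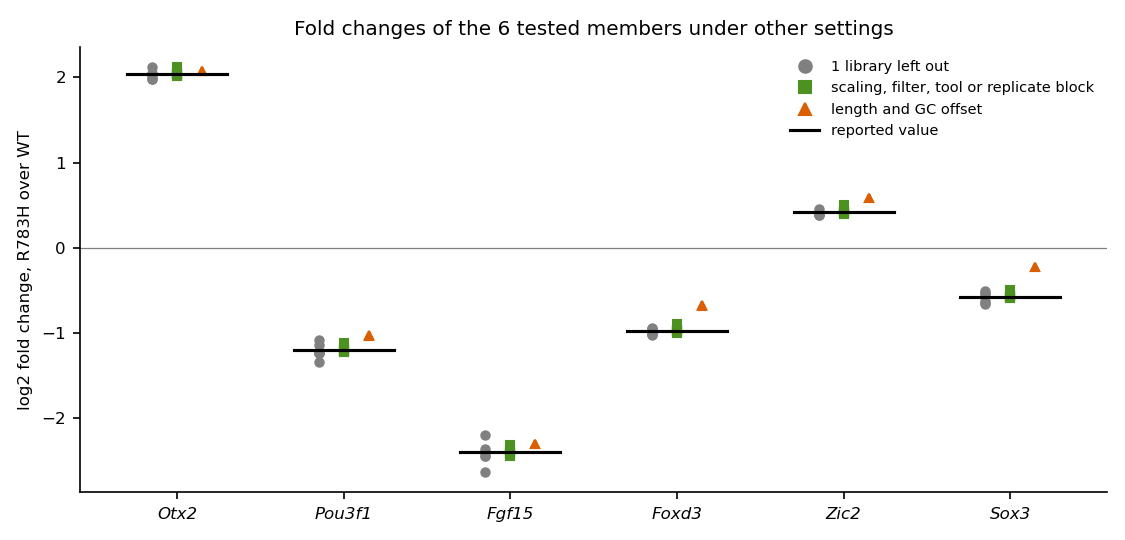
Log2 fold change (R783H over WT, vertical axis) of the 6 tested members as reported (bars) and under other settings: 1 library left out (circles), another scaling, filter, tool or the replicate block (squares), and the length and GC offset (triangles). No member changes sign; Sox3 and Foxd3 move most with the offset, to -0.23 and -0.68.

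Across 16 alternative settings the direction of the tested members held, for Fgf15 in the 15 in which it was tested. Otx2 ranged from 1.97 without R783H B to 2.12 with scaling by library size alone, Pou3f1 from -1.34 without R783H A to -1.03 with the offset, and Fgf15 from -2.63 without R783H C to -2.20 without R783H A. Their largest adjusted p-values over these settings were 3.75e-06, 3.53e-04 and 9.16e-05, each from the edgeR, DESeq2 or limma fit concerned. The plot of alternative settings shows that leaving out a library moved Fgf15, Pou3f1 and Sox3 more than it moved Foxd3 or Zic2. Otx2, with 51 to 66 counts per WT library, also moved, to 2.12 without WT C.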

How the data were processed

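Poly(A)-selected RNA of 6 libraries, 3 R783H and 3 WT, was measured as read counts per gene. The authors deposited raw counts per Entrez identifier, as whole numbers with a different total per library. Per the submitters' processing notes, CASAVA 1.4, HISAT2 and SAMtools were used with the build mm10; what counted the reads, on which annotation and with or without strand is not given in the sources used here. Groups and letters came from the titles, and 0 columns were left unassigned.

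RefSeq symbols and places (GRCm38.p6) matched 25275 identifiers and left 1904 unmatched. Transcript length and GC content came from GENCODE M21 (GRCm38, the same build as mm10), for 13067 of 14199 tested genes (92.0%). Genes passed edgeR's filterByExpr (minimum count 10, minimum total 15), were scaled with TMM and tested with edgeR 4.0.16's quasi-likelihood test on group alone, two-sided, adjusted after Benjamini-Hochberg across the whole table, in R 4.3.3. Log2 CPM used a prior count of 2. The SE is the log2 fold change divided by the square root of F. No molecular identifiers mark single molecules, so intervals on counts cover counting error only. The common biological coefficient of variation was 5.45%. Alternatives used other scalings and filters, DESeq2 1.42.0, limma 3.58.1 (voom), a replicate block, a length and GC offset (mgcv 1.9.3) and each library left out.

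The scripts were tested on simulated data. The members, lists and tests were chosen with earlier results of these data known. The naming rule took all members, every tested relative, from each list at most 4 called genes of largest change at 1 CPM or more, and the 2 most similar genes per member with at least 10 counts in every library. Trim71, Fgfr1, Fgfr2, Fgfr4, Klb, Pou5f1, Pax3, Sox10, Ets1, Snai2, Sox7, Sox17, Neurod1, Cldn6, Lef1, Sall2, Nodal, the neighbouring genes and the markers near 0 were named outside that rule, after their values were seen. Some genes of the lists are counted but not reported by name here.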

Additional observations from a re-analysis of the deposited data

How the results depend on the processing

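The count of members called higher stayed at 2 under all 16 alternatives. The count called lower stayed at 4 except where it was 3: under a minimum of 10 counts per library, which drops Fgf15, and with the length and GC offset, alone or with the replicate block, which loses Sox3 (-0.22 and adjusted p 0.166 by edgeR's quasi-likelihood test with both). With the replicate block alone it was 4, and same-letter libraries deviated together by correlations from -0.07 to 0.09 over genes, so the letters were not taken as pairs; the block added a call for Otx1 (0.77, adjusted p 0.0187 by edgeR's quasi-likelihood test). Among family relatives 5 were called lower, but 3 under that minimum, 3 with the offset and 3 with the offset and the block; without single libraries the count ran from 3 to 5. Of receptors 2 were called lower, but 1 with scaling by library size alone, 1 without the low-count filter, 1 with DESeq2 and 1 with the replicate block, and 1 to 2 without single libraries. Of naive genes 6 were called higher, and 3 to 7 without single libraries. The cause of these shifts was not tested. Values near 0 changed sign: Pou3f2 to -0.0446 with the offset and -0.0570 with the offset and the block, and from -0.21 to 0.42 without single libraries; Pou3f3 to -0.0232 with the offset and -0.0206 with the offset and the block, and from -0.15 to 0.55 without single libraries; Sox2 to -0.00642 with RLE factors and with DESeq2, and from -0.0395 to 0.0539 without single libraries. The neural median of -0.12 was 0.28 under the minimum of 10 counts per library, where fewer genes were tested. Without the low-count filter, where more genes were tested, it was -0.79. The members' median of -0.77 was -0.45 in both offset fits and -0.57 under the minimum of 10 counts. Depth limited Fgf5, at 10 counts or fewer, and the R783H level of Fgf15, at 13 or fewer.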
